A study of Drosophila melanogaster with 9 samples.

Results

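Pairs of 10 kb bins that lay over 1 and up to 5 Mb apart on 1 chromosome arm are described here, from 2 lists of interacting pairs made by Hi-C. Hi-C cuts and rejoins fixed chromatin, so that DNA ends that lay close together in the nucleus are sequenced as 1 molecule. Members were taken from arms 2L, 2R and 3L, and neither bin could start in the first or last 1 Mb of its arm. The rule used position and distance only. It kept 14107 of the 59303 pairs of the heat-shock list and 6957 of the 33978 pairs of the companion list. Together these are 19477 different pairs, of 82344 in all.

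The heat-shock list belongs to 2 Hi-C libraries of Kc167 cells, a female embryonic line of Drosophila melanogaster. The cells grew at 25 °C, spent 20 min at 37 °C, were fixed in 1% formaldehyde, and their chromatin was cut with HindIII. The companion list is tied by no label to a sample, a treatment or a number of libraries. Each list gives a bin pair and the authors' score, a negative number never above -2, and no read count, so the depth behind a pair is unknown. Bins that form no listed pair may still be in contact. There is 1 list of each kind and no replicate, so nothing was tested between them. Intervals are at 95% and hold counting error alone, as if each pair were independent of its neighbours, which it is not.

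Fly chromosomes fold into domains whose parts touch each other more than they touch the sequence beyond. Contacts over megabases join domains to other domains, and in flies those held by Polycomb proteins and those of silent chromatin are known for pairing with their own kind over long distances. Heat shock stops the transcription of most active genes while the heat shock genes are strongly switched on.

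Pairs over 1 and up to 5 Mb apart were 2.03 times as many in the heat-shock list as in the companion list (1.97 to 2.09). Among all interior pairs of the same arms their share was 53.6% (53.0 to 54.2%) in the heat-shock list, against 45.1% (44.3 to 45.9%) in the companion list. Interior pairs of every distance came to 26306 for heat shock and 15434 for the companion, a ratio of 1.70 (1.67 to 1.74). The long-range pairs thus exceeded the general difference in length. When the heat-shock list was cut by score to the length of the companion list, over all arms, the ratio of the long-range pairs was 1.15 (1.12 to 1.19), and that of the sub-bands of 500 kb lay between 1.02 (0.871 to 1.19) and 1.23 (1.13 to 1.34).

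Within the range the excess was even. The 8 sub-bands of 500 kb had ratios between 1.91 (1.75 to 2.09), at 3 to 3.5 Mb, and 2.16, at 2 to 2.5 Mb, and the intervals of all 8 held the overall 2.03. Of 16 sub-bands of 250 kb, 14 did so. Both lists thinned with distance in the same way. From 1 to 1.5 Mb, 11.1 of every 1000 bin pairs that exist at that distance were listed in the heat-shock list, against 5.21 in the companion list. At 4.5 to 5 Mb the densities were 2.81 per 1000 in the heat-shock list, against 1.33 per 1000 in the companion list. The median distance of the members was accordingly alike, at 2.25 Mb (2.23 to 2.28 Mb) for heat shock and 2.29 Mb (2.23 to 2.32 Mb) for the companion. The nearest sub-band gave the largest part of the extra pairs. It held 3249 heat-shock and 1530 companion pairs, which is 24.0% of the 7150 extra pairs, while the sub-band from 4.5 to 5 Mb gave 4.99%.

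Outside the range the ratio was less even. It was 1.26 (1.17 to 1.35) up to 200 kb, 1.07 (1.02 to 1.14) over 200 to 500 kb, with 2597 heat-shock and 2416 companion pairs, and 1.76 (1.67 to 1.85) over 500 kb to 1 Mb. Beyond the range, pairs 5 to 8 Mb apart had a ratio of 1.86 (1.74 to 1.98) and those 8 to 12 Mb apart 1.48 (1.34 to 1.63). Past 12 Mb it was 1.01 (0.877 to 1.17), with 388 heat-shock and 383 companion pairs. The ratio was thus lowest over 200 to 500 kb and past 12 Mb, and near 2.03 throughout the range between 1 and 5 Mb.

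**Figure D1:**
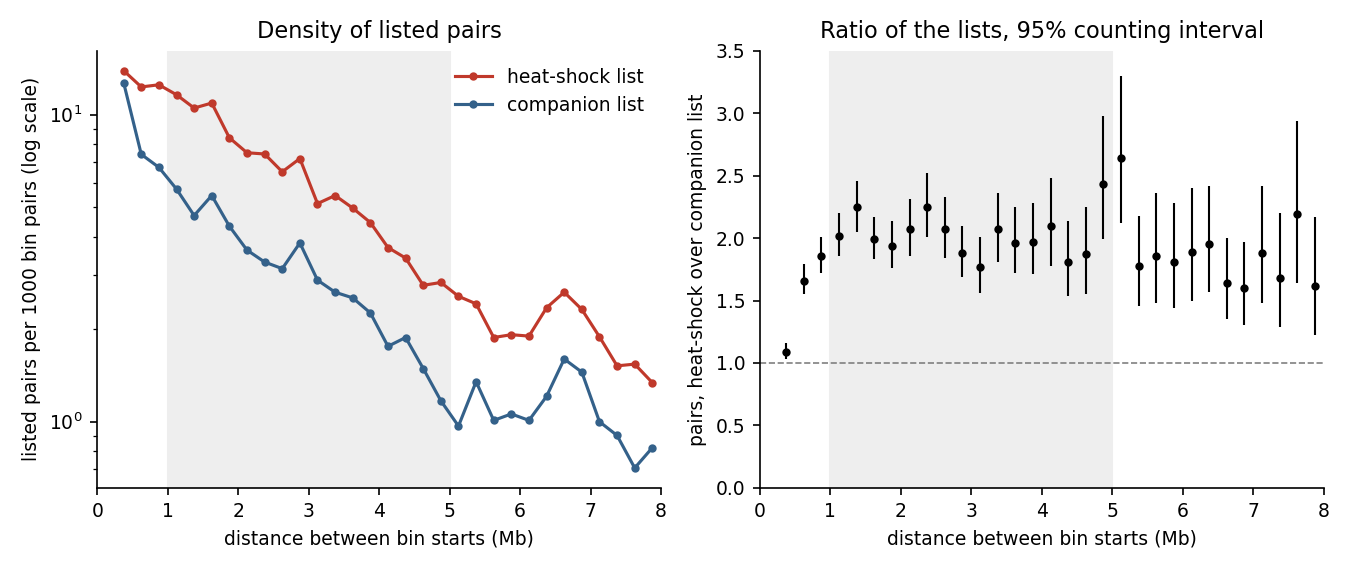
Left, interior pairs listed per 1000 bin pairs that exist at each distance (log scale), in sub-bands of 250 kb; right, number of heat-shock over companion pairs with 95% counting intervals. Grey marks 1 to 5 Mb, where the ratios lie between 1.77 and 2.43.

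The arms differed in the ratio of long-range pairs, which also holds any general difference in list length on an arm. Arm 2R had 4382 heat-shock and 1996 companion members, a ratio of 2.20 (2.08 to 2.32). Arm 3L had 5034 and 2293 in the same order of lists, also 2.20 (2.09 to 2.31). Arm 2L was lower at 1.76 (1.68 to 1.84), with 4691 heat-shock and 2668 companion pairs, and its interval lay below those of the others. Among the interior pairs of 2L, the long-range share was 53.9% for heat shock, against 48.6% for the companion. On 2R these shares were 55.1% and 43.2%, and on 3L 52.2% and 43.1%. Measured by share, the lists thus differed most on 2R and least on 2L. The course with distance was not the same on each arm. On 3L pairs 1 to 2 Mb apart had a ratio of 2.35 (2.18 to 2.53) and those 4 to 5 Mb apart 1.91 (1.65 to 2.21), whereas on 2R the highest value, 2.49 (2.25 to 2.77), was at 2 to 3 Mb. On 2L the lowest value, 1.63, was at 2 to 3 Mb.

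More bins took part in the heat-shock list. Of 6251 interior bins, 4919 (78.7%) had at least 1 partner over 1 to 5 Mb away in the heat-shock list, against 3616 (57.8%) in the companion list. With lists of equal length the numbers were closer, 3979 heat-shock and 3616 companion bins. Both lists used 3252 of these bins, 1667 were used in the heat-shock list alone, 364 in the companion list alone and 968 in neither. No share over all distances and arms is given for these counts, so they are not read as particular to long-range pairs. A used bin had a median of 3 partners in the heat-shock list, against 2 in the companion list. Bins with a single partner were 26.4% of those used in the heat-shock list, against 39.2% of those used in the companion list.

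Most bins gained partners, in a share near that of the background. Among 5283 bins with a pair in at least 1 list, 3702 (70.1%) had more long-range partners in the heat-shock list and 949 (18.0%) had fewer. At all distances on the 5 arms the background shares were 70.8% with more and 20.5% with fewer. A surplus of 20 or more partners was seen at 110 bins, 2.08% of the bins with long-range pairs, and a deficit of that size at 5, or 0.0946%. Over all distances and arms the same limit was passed by 3.94% of bins upward and by 0.180% downward. Across bins the partner numbers of the lists had a Spearman rho of 0.48, given as a description because neighbouring bins share pairs.

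The extra pairs came from a small number of very rich bins on top of a broad surplus. Each pair has 2 ends, and bins with 50 or more heat-shock partners, 53 in number, held 4004 heat-shock and 798 companion pair ends, a ratio of 5.02. Bins with 20 to 49 heat-shock partners had a ratio of 1.97. Bins with 10 to 19 partners held 5166 heat-shock and 2588 companion ends, those with 5 to 9 had a ratio of 1.99 and those with 2 to 4 had 1.96. Bins with 1 heat-shock partner had 1.35. Thus the ratio was nearly the same from 2 to 49 partners and stood out in the richest class. This grouping uses the heat-shock numbers themselves and is a description. Grouped by companion partners, a grouping that uses the companion numbers, the ratio was lower in richer classes. Bins with 1 companion partner had a ratio of 2.83, those with 5 to 9 had 1.68, and the 88 bins with 20 or more had 1.23, with 3201 heat-shock and 2608 companion pair ends. Bins without any long-range partner in the companion list held 14.0% of the heat-shock pair ends.

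**Figure D2:**
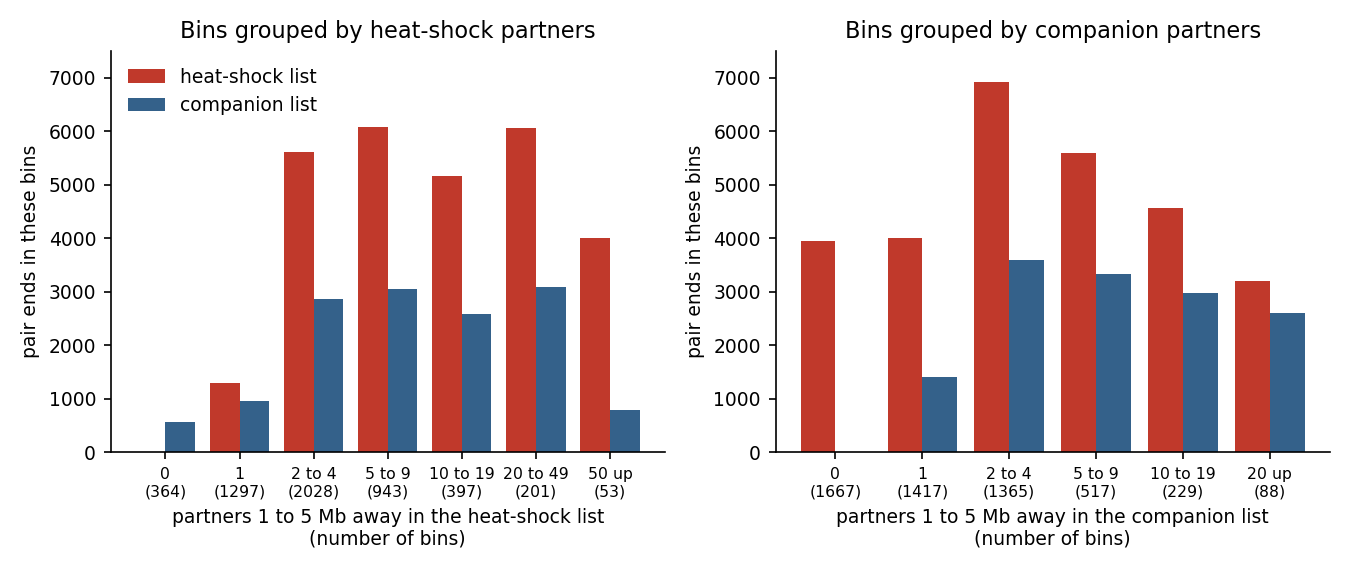
Pair ends at 1 to 5 Mb held by bins grouped by their number of partners in the heat-shock list (left) or the companion list (right), with the number of bins in brackets; "50 up" and "20 up" mean that many or more. On the left, the 53 richest bins hold 4004 heat-shock and 798 companion ends.

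Those 53 bins are 1% of the bins used, and they are called the heat-shock top bins; the first bin outside the set had 49 partners. Pairs that touched one of them numbered 3974 in the heat-shock list, 28.2% (27.4 to 28.9%) of its members, and 792 in the companion list, 11.4% (10.6 to 12.2%) of its members. They accounted for 44.5% of the extra pairs, a description, since heat-shock numbers chose the bins. Ranked by companion partners instead, the top 1% of bins touched 24.1% (23.1 to 25.1%) of the companion members. With bins of 50 kb, the top 1% of each list, ranked in that list, touched 11.3% of heat-shock and 10.2% of companion pairs. Pairs that touched none of the heat-shock top bins had a ratio of 1.64 (1.59 to 1.70), with 10133 heat-shock and 6165 companion pairs. In each sub-band of 500 kb the pairs of the top bins had a ratio between 3.71 (3.11 to 4.45) and 7.25 (5.91 to 8.97), and the remaining pairs between 1.54 (1.43 to 1.65) and 1.86 (1.62 to 2.15). Outside the heat-shock top bins the heat-shock list thus held more pairs at every distance within the range. These ratios were near the 1.70 of all interior pairs, top bins included. Setting aside bins chosen by heat-shock numbers lowers the ratio of the rest by construction. With the top bins of either list set aside, long-range pairs had a ratio of 1.84 (1.77 to 1.90). Their share of the interior pairs left was 48.6% in the heat-shock list, against 39.8% in the companion list.

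The heat-shock top bins were single bins rather than stretches. Their median number of long-range partners was 68 in the heat-shock list, against 9 in the companion list, while the bins next to them had a median of 2 in the heat-shock list, against 1 in the companion list. Only 3 of the 53 lay beside another top bin. They were spread over the arms, with 17 on 2L, 18 on 2R and 18 on 3L. The same bins were also rich at shorter distances, with a median of 39 heat-shock and 10 companion partners up to 1 Mb away. There the median of all bins with a long-range pair was 1 in each list. Over 5 Mb away the top bins had a median of 6 in the heat-shock list, against 1 in the companion list.

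Bins were also ranked by their pairs up to 1 Mb apart, among the 5283 bins with a long-range pair in at least 1 list. The ranking did not use the number of long-range pairs, and it gave a similar picture. The 53 bins with most heat-shock partners up to 1 Mb away touched 3276 long-range pairs of the heat-shock list and 428 of the companion list, a ratio of 7.65 (6.92 to 8.49), and accounted for 39.8% of the extra pairs. This choice still rests on the heat-shock libraries, and 29 of its bins were heat-shock top bins. The 53 bins with most companion partners up to 1 Mb away touched 1820 heat-shock and 402 companion long-range pairs, a ratio of 4.53 (4.06 to 5.06). Of these bins 50 had a long-range surplus in the heat-shock list and 1 had a deficit. Among all bins with a long-range pair the shares were 70.1% and 18.0%. Of this set 14 were heat-shock top bins. The ratio at bins rich in short-range companion pairs was thus above the 2.03 of all members.

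**Figure D3:**
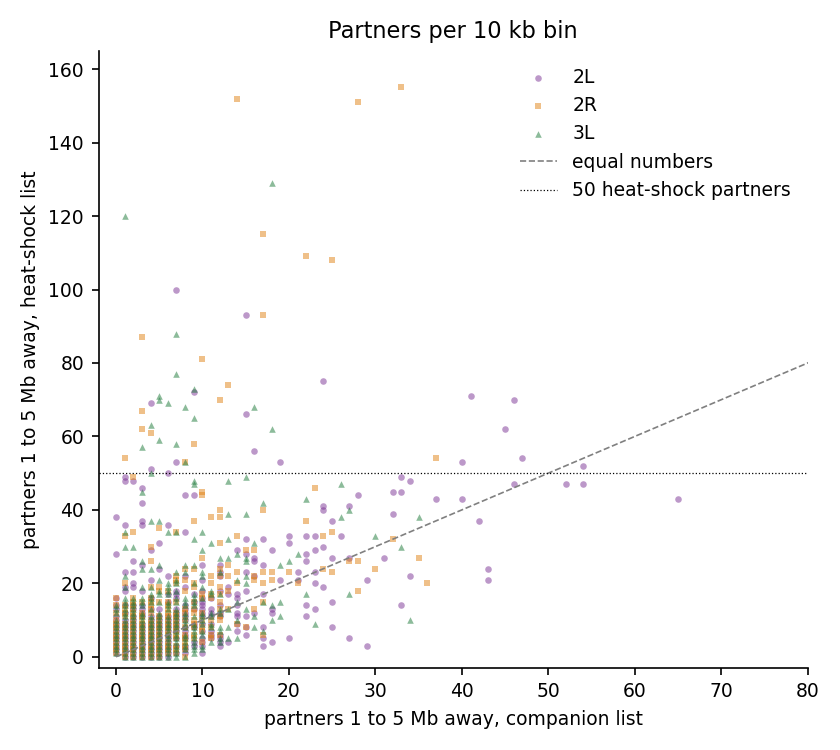
Partners 1 to 5 Mb away of each 10 kb bin in the heat-shock list (vertical) and the companion list (horizontal), by arm; bins with the same 2 numbers on an arm share a point. The 53 bins on or above the dotted line have 50 or more heat-shock partners, and most lie far above the line of equal numbers.

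The richest bin was 2R 5850001-5860000, with 155 long-range partners in the heat-shock list, against 33 in the companion list. A second rich bin, 2R 5670001-5680000, lay 0.180 Mb away and had 151 heat-shock and 28 companion partners. They had 47 heat-shock partners in common, 30.3% of those of the first and 31.1% of those of the second. The bins directly after each had 0 long-range partners in either list, and those directly before had 4 and 3 in the heat-shock list, against 1 each in the companion list.

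The largest surplus was at 2R 12110001-12120000, with 152 partners in the heat-shock list, against 14 in the companion list, of which 10 were in both. Its heat-shock partners lay on both sides, 60 toward lower and 92 toward higher positions. They thinned with distance, with 64 over 1 to 2 Mb, 43 over 2 to 3 Mb, 26 over 3 to 4 Mb and 19 over 4 to 5 Mb. On 3L, bin 16370001-16380000 had 120 heat-shock partners and 1 companion partner, and bin 20530001-20540000 had 129 heat-shock and 18 companion partners. On 2L the largest surplus was at 6640001-6650000, with 100 heat-shock and 7 companion partners, 78 of the 100 toward higher positions.

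The others of the 10 richest bins followed the same pattern. On 2R, 13460001-13470000 had 115 heat-shock and 17 companion partners, 14150001-14160000 had 109 and 22 in that order, and 17580001-17590000 had 108 and 25. On 2L, 13210001-13220000 had 93 heat-shock and 15 companion partners. Among the 10 largest surpluses was also 2R 11530001-11540000, with 87 heat-shock and 3 companion partners and none of them in both lists. The strongest score at any of these 11 bins was -11.7 in the heat-shock list, against -77.5 for the strongest heat-shock member. Pairs that touched a heat-shock top bin had a median score of -3.14 in the heat-shock list, against -2.44 for its other members.

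**Figure D4:**
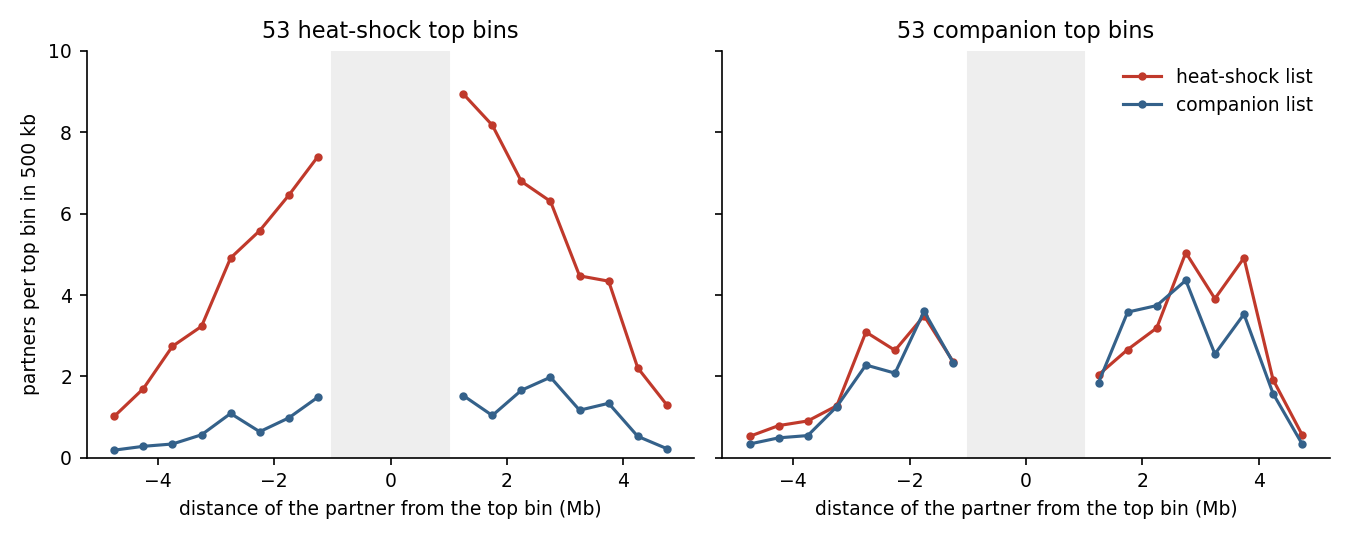
Mean number of partners per top bin in each 500 kb step of distance before and after it, for the 53 heat-shock top bins (left) and the 53 companion top bins (right); grey marks the distances under 1 Mb that are left out. Around heat-shock top bins the heat-shock list has 8.94 partners per bin at 1 to 1.5 Mb after the bin and the companion list 1.53.

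The bins richest in the companion list had richer neighbours than the heat-shock top bins. The 53 companion top bins had 25 or more companion partners, the next bin outside the set also had 25, and 9 of the set were also heat-shock top bins. They touched 1965 heat-shock pairs and 1675 companion pairs, a ratio of 1.17 (1.10 to 1.25). A heat-shock surplus was seen at 27 of them and a deficit at 24. Among all bins with a long-range pair, 70.1% had a surplus and 18.0% a deficit. Companion numbers chose the set, which lowers its ratio by construction, so these values are a description. Of these bins 34 were on 2L, and 21 lay beside another of the set. The bins next to them had a median of 12 partners in the heat-shock list, against 10 in the companion list. The companion top bins also met each other often. Of the 287 pairs possible between them in this range, the companion list held 152 (53.0%). The heat-shock list held 30 (18.6%) of the 161 pairs possible between heat-shock top bins. Each set was chosen by its partners in the list counted, so both shares are descriptions.

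The companion bin with most partners, 2L 8210001-8220000, had 43 long-range partners in the heat-shock list, against 65 in the companion list. Bin 2L 5990001-6000000 had 47 heat-shock and 54 companion partners, and 2L 6040001-6050000 had 54 heat-shock and 47 companion partners. Beside it, 2L 6050001-6060000 had 47 heat-shock and 52 companion partners. Bin 2L 17980001-17990000 had 52 heat-shock and 54 companion partners, 44 of them in both lists. These 5 bins, picked by their companion numbers, had nearly as many or more long-range partners in the companion list. That list was the shorter.

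Along the arms the excess was general. Of 127 windows of 500 kb, 125 (98.4%) held more long-range pair ends in the heat-shock list and 1 held fewer, and the median window had a ratio of 2.08, with quartiles of 1.72 and 2.89. Over all distances and the 5 arms the background shares of windows were 97.1% with more and 2.92% with fewer. The largest surplus was in 3L 5500001-6000000, with 664 heat-shock and 188 companion ends, of which 563 and 150 lay outside the top bins of either list. The window 2R 5500001-6000000 held 596 heat-shock and 190 companion ends, of which 212 and 98 were left once the top bins were set aside. The next was 3L 3500001-4000000, with 423 heat-shock and 81 companion ends, of which 364 and 76 lay outside top bins. Most of the surplus of ends in these 3L windows thus lay outside top bins, while most of that of the 2R window was in 4 top bins. An end outside a top bin may still belong to a pair whose other end is a top bin.

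Only 1 window had fewer ends in the heat-shock list, 2L 8000001-8500000, with 365 heat-shock and 565 companion ends, a ratio of 0.646. The window 3L 23500001-24000000, of which 1 bin was used, had 1 end in each list, and 2R 20000001-20500000, at the limit of the interior, had 23 heat-shock and 8 companion ends.

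Pairs also formed solid patches, in which both bins step along neighbouring positions. Patches of 20 or more pairs joined edge to edge or corner to corner numbered 10 in the heat-shock list, with 778 pairs or 5.51% of its members, and 8 in the companion list, with 498 pairs or 7.16% of its members. Most members stood alone, 64.2% in the heat-shock list, against 66.4% in the companion list. The patches held few of the members. They were picked by their pairs in these lists, so their numbers are a description.

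The largest patch of each list joined nearly the same stretches of 2L. In the heat-shock list it ran over 2L 5910001-6100000 and 2L 8780001-9160000, with 301 pairs, and in the companion list over 2L 5910001-6070000 and 2L 8770001-9010000, with 212 pairs. In the area of the companion patch, 60.9% of bin pairs were in the heat-shock list, against 56.0% in the companion list. A patch on 2R, which joined 8090001-8260000 to 9670001-9860000 in the heat-shock list, held 154 heat-shock and 80 companion pairs in its area.

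Bin 2L 17980001-17990000 and the next bin joined a stretch at the far end of the interior of 2L. In the heat-shock list this patch ran over 2L 21570001-21990000 and was nearly filled, with 92.9% of its bin pairs in the heat-shock list, against 85.7% in the companion list. This bin gave 10 of the 20 strongest heat-shock members and 7 of the 20 strongest companion members. Its pair with 2L 21610001-21620000, 3.63 Mb away, was the strongest heat-shock member, with a score of -77.5 in the heat-shock list, against -103 in the companion list. It is not known whether both lists score on a common scale, so scores are read within a list.

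The largest surplus among the patches was on 3L, between 3450001-3620000 and 5890001-6030000, with 114 heat-shock and 37 companion pairs in its area, a ratio of 3.08 (2.11 to 4.59). Next to it, the patch between 3L 3680001-3750000 and 3L 5910001-5990000 had 26 heat-shock and 3 companion pairs, a ratio with a counting interval of 2.66 to 44.7. Both lie largely in the 3L windows with the large surpluses.

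Among the patches, those with a deficit in the heat-shock list were other ones. They lay mostly on 2L, as did 6 of the 8 companion patches. The companion patch between 2L 6330001-6430000 and 2L 8160001-8300000 had 11 heat-shock and 67 companion pairs in its area, which is 7.86% and 47.9% of the bin pairs there. A second, between 2L 6450001-6510000 and 2L 8190001-8260000, had 9 heat-shock and 28 companion pairs. On 3L the patch between 6600001-6710000 and 9290001-9330000 had 1 heat-shock pair and 33 companion pairs. These were the 3 of the 8 companion patches with fewer heat-shock pairs, and none of the 10 heat-shock patches had fewer. Each set of patches was picked by the pairs of its own list, which favours such a split.

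The 5 bins with the largest deficits lay in these patches. Bin 2L 8290001-8300000 had 3 heat-shock and 29 companion partners, 2L 6420001-6430000 had 21 and 43 in that order, and 2L 6450001-6460000 had 5 and 27. On 3L, 9300001-9310000 had 10 heat-shock and 34 companion partners. The last was 2L 8210001-8220000, described above. They were the only bins with a deficit of 20 or more partners, and 4 of the 5 were on 2L. So were 34 of the 53 companion top bins.

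The deficit on 2L was not shared by the next partner stretch. Between the windows 2L 6000001-6500000 and 2L 8000001-8500000 there were 120 heat-shock and 269 companion pairs, a ratio of 0.446 (0.357 to 0.555), with 55 pairs in both lists. Between the same first window and the next window along, 2L 8500001-9000000, there were 285 heat-shock and 180 companion pairs, a ratio of 1.58 (1.31 to 1.92). The second window, 2L 8000001-8500000, also had fewer heat-shock pairs with other partners. It had 22 heat-shock and 42 companion pairs with 2L 5500001-6000000, and 40 and 62 with 2L 10000001-10500000. With some windows it had more, among them 2L 6500001-7000000 with 102 and 85. The largest surplus of any such block was on 3L, between 3500001-4000000 and 5500001-6000000. It had 228 heat-shock and 34 companion pairs, a ratio of 6.71 (4.66 to 9.92). Only 44 of the 228 touched a top bin. The blocks were chosen after their values were seen, as the extremes of 952 blocks, of which 768 had more heat-shock pairs and 130 had fewer.

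**Figure D5:**
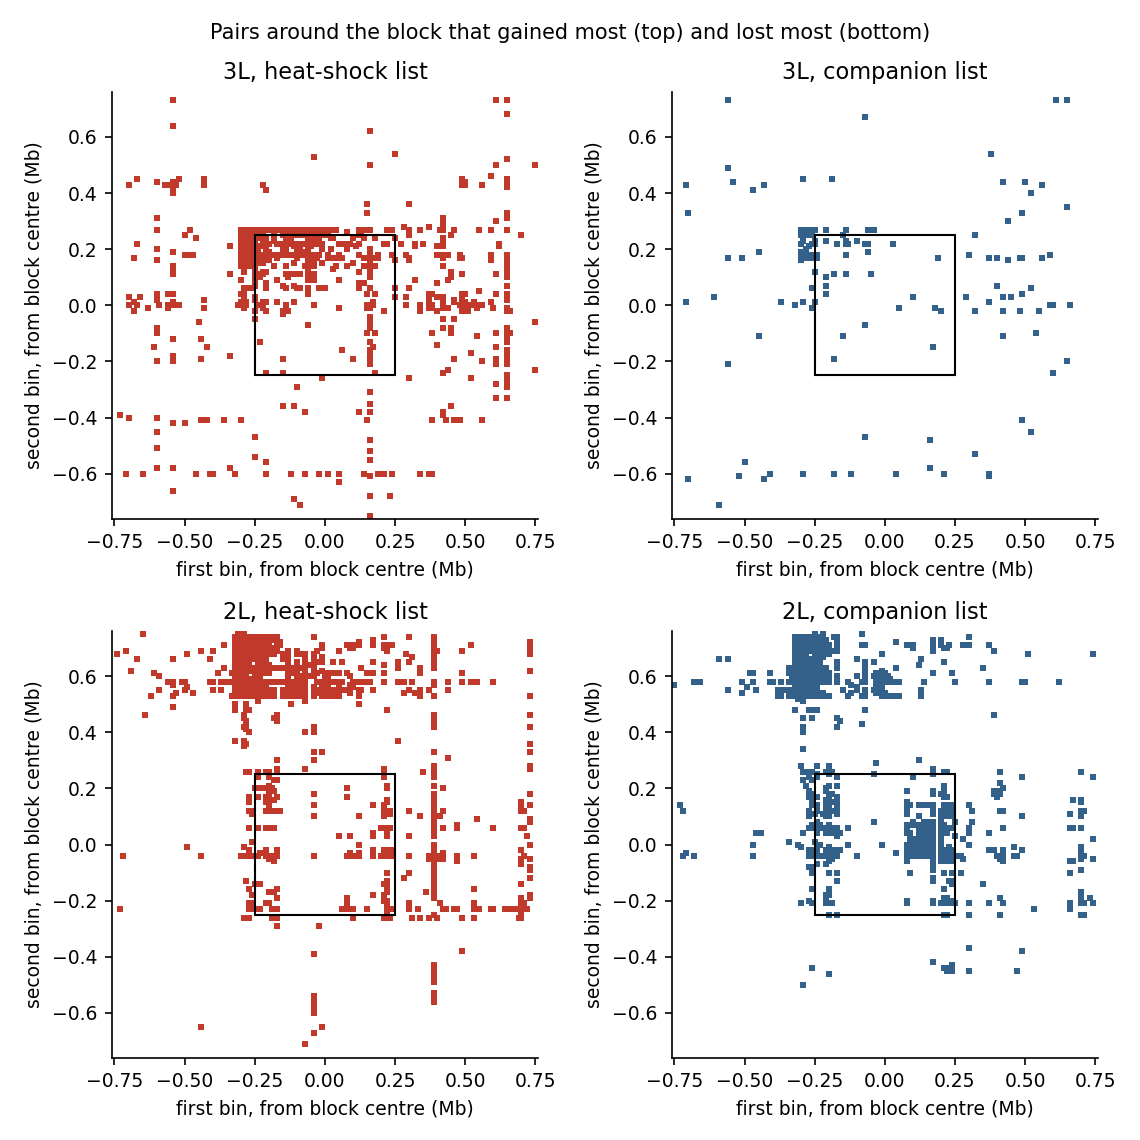
Each square is a listed pair of 10 kb bins, placed by the distance of its first and second bin from the centre of a block of 500 kb by 500 kb (black frame); heat-shock list left, companion list right. In the frame on 3L (top) there are 228 heat-shock and 34 companion pairs, and in the frame on 2L (bottom) 120 heat-shock and 269 companion pairs; single vertical or horizontal rows are the pairs of 1 rich bin.

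The lists had 1587 long-range pairs in common, 11.2% (10.7 to 11.8%) of the heat-shock members and 22.8% (21.8 to 23.8%) of the companion members. Over the whole lists 10937 pairs were in both, 18.4% of heat-shock and 32.2% of companion pairs, so the long-range pairs were shared less often. Interior pairs up to 1 Mb apart on the same arms were shared in 31.1% (30.1 to 32.2%) of heat-shock and 42.4% (41.2 to 43.7%) of companion cases. With a tolerance of 1 bin at each end, 23.5% of heat-shock and 41.1% of companion members had a match, and without the top bins of either list, 7.70% and 14.2% were identical. Sharing was highest over 2.5 to 3 Mb, at 16.2% (14.6 to 18.0%) of heat-shock and 31.9% (28.9 to 34.9%) of companion pairs, and the strongest pair of the largest 2L patch spanned 2.84 Mb. It was lowest over 4.5 to 5 Mb, at 3.39% (2.16 to 5.05%) of heat-shock and 7.17% (4.60 to 10.6%) of companion pairs. Arm 2L had the highest shares, 17.4% of heat-shock and 30.6% of companion pairs, against 8.99% and 19.7% on 2R and 7.49% and 16.4% on 3L. Sharing thus did not simply decline with distance.

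Pairs of companion top bins were shared more often than other companion pairs, which was not seen for heat-shock top bins. Of the companion pairs that touched a companion top bin 41.4% (39.0 to 43.8%) were also in the heat-shock list, against 16.9% (15.9 to 18.0%) of the other companion members. Of the 3974 heat-shock pairs that touched a heat-shock top bin, 437 were in the companion list, close to the 11.3% (10.7 to 12.0%) of the other heat-shock members.

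Stronger pairs were shared more often. The strongest 10% by score were in both lists for 25.9% (23.6 to 28.3%) of the heat-shock and 48.9% (45.1 to 52.7%) of the companion pairs, and the weakest 10% for 7.30% (6.00 to 8.79%) and 9.50% (7.42 to 11.9%). Since the scales may differ, the next counts are read within each list. Scores of -10 and lower belonged to 67 heat-shock members, 59 of them in both lists, and to 129 companion members, 81 of them in both lists. In each list most pairs past this limit were therefore shared.

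The 5 strongest heat-shock members were all in both lists. Besides the pair named above, these linked 2L 5940001-5950000 to 2L 8780001-8790000, at a heat-shock score of -45.6 and a companion score of -29.8, and 2R 4690001-4700000 to 2R 6380001-6390000, at a heat-shock score of -43.0 and a companion score of -116. The other 2 joined 2L 17980001-17990000 to 2L 21620001-21630000, with -33.3 and -52.8 in the same order of lists, and to 2L 21570001-21580000, with -29.0 and -66.7. Of the 5 strongest companion members, 2 were absent from the heat-shock list. These joined 2R 5550001-5560000 to 2R 6900001-6910000, with a companion score of -165, and 2L 16600001-16610000 to 2L 20300001-20310000, with -90.2.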

How the data were processed

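The authors' deposited lists give 2 bins of 10 kb per line and a score; each list was used as deposited. The score is never above -2; for its base, test and background model nothing is stated. The submitters' processing notes name Bowtie 0.12.7. Genome build and pair caller were not given in the sources used here. Because the arms of the gene table at hand run past the last bins, no gene or sequence was assigned to a bin. Positions count from 1. The 7 ChIP and input libraries of the series were not analysed here.

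Distance was taken between bin starts, and arm limits were the lowest and highest positions in either list. Shares have exact (Clopper-Pearson) intervals, ratios exact conditional binomial intervals and medians intervals from order statistics (Python 3.11.15, scipy 1.17.1). Bin pairs that exist at a distance were counted from the arm limits. Top bins are 1% of the bins used in either list, ranked within a list. Named bins, windows and pairs are the extremes in partners, surplus, deficit and score; blocks and patches were picked once their values were known. The members, lists and rules were chosen with earlier results of these data known. The functions were tested on simulated lists. Alternatives were lists of equal length, stricter lists, other margins, bins, arms and sub-bands, and looser matching.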

Additional observations from a re-analysis of the deposited data

How the results depend on the processing

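No paired analysis was possible because only 1 list of each kind exists, and for the same reason no library could be left out. Of 118 values under other settings, 40 lay inside the reported interval (for numbers of bins, within 1.5 times) and 78 lay outside it. A change of direction was defined for ratios alone, and no ratio fell below 1. The lowest sub-band with lists of equal length, 1.02 (0.871 to 1.19), had an interval that held 1. Except where fewer or more pairs, bins or arms enter by construction, the cause of the shifts was not tested. With lists of equal length, the ratio was 1.15 and the sub-bands ran from 1.02 to 1.23; the heat-shock share of long-range pairs was 56.3%, top bins touched 37.7% of heat-shock and 23.0% of companion pairs, and 13.9% and 16.1% were in both lists. With the strongest 50% of each list, the ratio was 2.13, the highest sub-band 2.49, the heat-shock share 56.9%, top bins 37.1% and 27.4%, and the companion share in both lists 24.0%. A 2 Mb margin gave a heat-shock share of 54.3% and 21.5% of companion pairs in both lists. No margin gave shares of 48.0% (heat-shock) and 37.8% (companion), with 12.3% and 25.4% in both lists. Bins of 50 kb gave a ratio of 1.92, shares of 55.3% and 49.1%, 1247 and 1189 bins taking part, top bins 11.3% and 10.2%, and 21.0% and 40.2% in both lists. Without the top bins of either list, the ratio was 1.84, the sub-bands 1.67 to 1.97, the shares 48.6% and 39.8%, the next top bins 20.5% and 17.3%, and 7.70% and 14.2% were in both lists. Without 2L, the ratio was 2.20, the highest sub-band 2.50, the companion share 43.1%, top bins 30.7% and 21.3%, and 8.19% and 18.0% in both lists. Without 2R, these were a ratio of 1.96, shares of 53.0% and 45.9%, top bins 25.4% and 25.2%, and 12.3% and 24.0% in both lists. Without 3L, they were 1.95, 54.4% and 46.1%, 3123 and 2257 bins, top bins 29.0% and 26.1%, and 13.3% and 25.9% in both lists. With 3R and X added, the ratio was 2.26, the sub-bands 2.15 to 2.38, the shares 51.4% and 40.8%, the bins 8479 and 6132, top bins 30.0% and 23.0%, and 9.93% of heat-shock pairs were in both lists. Sub-bands of 250 kb reached 2.43. Top bins taken as 5% touched 64.8% and 57.1%. Pairs within 1 bin of one in the other list were 23.5% and 41.1%, and within 2 bins 34.2% and 54.3%. Top bins were ranked within each list, and in the main setting they touched 28.2% and 24.1%. The heat-shock value stands first throughout. Without read counts, the depth behind these values is unknown.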
